A study of Mus musculus with 4 samples.

Results

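Glucose entry and the control of glycolysis were followed through 9 genes, picked by name from the 54532 genes of the deposited tables. They are the glucose carriers Slc2a1 (GLUT1) and Slc2a2 (GLUT2), the glucokinase regulatory protein Gckr, ketohexokinase Khk, phosphofructokinase Pfkl, the bifunctional enzymes Pfkfb1 and Pfkfb3, pyruvate kinase Pklr and the transcription factor Mlxipl (ChREBP). All 9 had reads in every library. RNA-seq was done on 4 livers of mice with a liver-specific deletion of Cpt1a, fasted for 24 h, which are called the Cpt1a knockout livers. Their libraries held 14106038, 13138884, 14116441 and 13682887 counts. The table headers write this genotype Cpt1a_AlbCre, that is, Cre driven by the albumin promoter, which is active in hepatocytes. Whether other liver cells keep the gene was not tested. For other groups there are 3 deposited comparison tables. One of these groups is headed Cpt2_AlbCre and is called the Cpt2 group here. The other is headed Rab30Cpt2_f, a name that is not explained in the sources, and is called the reference group. The design text says that littermate controls and Cpt2-deficient mice were fasted for the same 24 h, and that samples of the mice lacking Cpt2 were submitted earlier. Neither the age, sex and strain of the mice nor whether each library is a different mouse is stated, so the variation among the 4 may be technical.

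Hepatocytes take up and release glucose through GLUT2, a carrier of high capacity and low affinity, and trap it as glucose 6-phosphate. The glucokinase regulatory protein holds glucokinase inactive in the nucleus during fasting, and fructose 1-phosphate, the product of ketohexokinase, releases it. Downstream, phosphofructokinase and pyruvate kinase are the steps at which glycolysis is switched off in the fasted liver, phosphofructokinase through the level of fructose 2,6-bisphosphate, which the PFKFB enzymes make and break down. ChREBP is activated by glucose metabolites and binds carbohydrate response elements, for which the liver promoter of Pklr is the textbook case.

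The promoters are shown because they separate the gene with the textbook carbohydrate response element from the others. Sequences are those of RefSeq on GRCm38.p6. The table holds 250 bases before to 50 after each annotated start, 32851 windows of 27025 genes, and all 9 members matched, with 15 windows. Both strands were searched for the E-box CACGTG, for ACGTG, the core of the hypoxia response element, which every E-box also contains, and for the carbohydrate response element (ChoRE), a pair of E-box-like hexamers set 5 bases apart. An E-box was found in 7.15% of all windows, ACGTG in 19.6% and the ChoRE in 39 windows, or 0.119%. Among the members the ChoRE stood only at the downstream start of Pklr, 170 bases upstream of it, in the intron that follows the first exon of the longer transcript. Khk and Mlxipl had an E-box 71 and 98 bases upstream of the first start, and Pfkfb3 had one 53 bases upstream of its second start. Slc2a1 and the first start of Pfkfb3 held ACGTG alone, 36 and 60 bases upstream. None of these letters was found in the windows of Slc2a2, Gckr, Pfkl or Pfkfb1. The second start of Mlxipl and the first start of Pklr held none either. Such absence says nothing about binding elsewhere. The stretches below are given 5′ to 3′ on the plus strand, the strand of all 3 genes, with the motif in capitals. They are chr3:89136373-89136571 for Pklr, chr5:30921476-30921505 for Khk, where the motif lies inside an annotated exon, and chr5:135089640-135089889 for Mlxipl.
Pklr, second start: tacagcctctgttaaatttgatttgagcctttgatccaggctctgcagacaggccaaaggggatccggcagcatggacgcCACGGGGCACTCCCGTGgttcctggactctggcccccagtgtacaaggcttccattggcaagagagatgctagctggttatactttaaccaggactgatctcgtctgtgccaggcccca
Khk: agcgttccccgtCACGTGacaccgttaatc
Mlxipl, first start: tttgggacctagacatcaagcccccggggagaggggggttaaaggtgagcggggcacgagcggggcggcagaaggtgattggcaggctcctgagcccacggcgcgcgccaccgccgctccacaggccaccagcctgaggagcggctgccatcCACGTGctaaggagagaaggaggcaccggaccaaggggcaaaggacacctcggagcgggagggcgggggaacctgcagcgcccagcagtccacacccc

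In the Cpt1a knockout livers the 9 genes spanned levels from 1.78 to 70.7 FPKM (fragments per kilobase of gene, scaled to library size). Khk led at 70.7 ± 25.0 FPKM, followed by Slc2a2 at 32.1 ± 4.86, Mlxipl at 28.8 ± 9.11 and Gckr at 26.4 ± 6.78 FPKM (SD, n = 4 each). Pfkfb1 at 8.02 ± 2.0 and Pklr at 7.07 ± 0.932 FPKM formed a middle tier. Slc2a1 at 4.66 ± 1.10, Pfkl at 2.94 ± 0.503 and Pfkfb3 at 1.78 ± 0.538 FPKM were lowest (SD, n = 4 each). Going down this order, the ranges of the 4 livers did not overlap between Khk and Slc2a2, between Gckr and Pfkfb1, and between Pklr and Slc2a1. Neighbours inside a tier could not be separated by their ranges, although Slc2a1 lay above Pfkl and Pfkl above Pfkfb3 within each of the 4 livers.

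**Figure D1:**
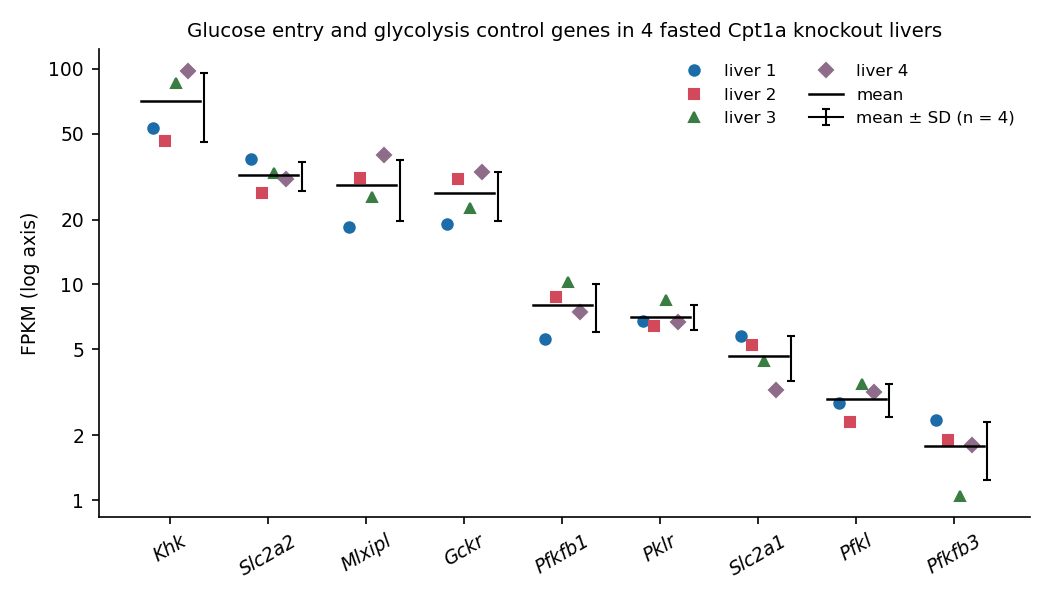
FPKM (log axis) of the 9 genes in each of the 4 Cpt1a knockout livers, ordered by mean, with the mean as a bar and ± SD (n = 4) at its side. Khk stands at the top with 46.3 to 98.1 FPKM and Pfkfb3 at the bottom with 1.05 to 2.34 FPKM.

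Gckr was called in all 3 tables, Khk, Pfkfb1, Mlxipl and Pklr in those that include the Cpt2 group, and Pfkl in that of the Cpt1a knockout with the reference group. A gene is called here when the authors' adjusted p was below 0.05. Relative to the reference group, Gckr and Pfkl were lower in the Cpt1a knockout, so 2 of 9 members were called lower and 0 higher in the authors' deposited table, where 7.6% of all genes were called lower and 6.81% higher. Against the same reference, Khk, Gckr, Pfkfb1 and Mlxipl were lower and Pklr was higher in the Cpt2 group in the authors' deposited table, 4 and 1 of 9, where 10.7% of all genes were called lower and 10.3% higher. Between the Cpt1a knockout and the Cpt2 group those 5 genes were called with the opposite sign in the authors' deposited table, 4 of 9 higher and 1 of 9 lower, where 14.2% of all genes were called higher and 14.6% lower. Slc2a1, Slc2a2 and Pfkfb3 were called in none of the 3 tables. The median log2 fold change of the 9 genes was −0.47, −0.42 and 0.23 in the order of these comparisons, where that of all genes was 0.01, −0.03 and 0.05, from the authors' deposited tables. The same shares and medians over all genes apply to the gene lists and cell type markers below.

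The 3 comparisons share their groups in pairs, so their values are not independent of each other. The table that sets the Cpt1a knockout against the reference group is cut at an unadjusted p of 0.05 and holds 4461 genes, with 4 of the 9 members among them. For the others the log2 fold changes of the remaining 2 tables were summed, with no p. That sum differed from the listed value by a median of 0.0121 over 4424 genes and by at most 0.0119 for the 4 listed members. It is not stated that the groups were sequenced together, so batch and genotype cannot be told apart. In whole liver, fewer hepatocytes and less RNA per hepatocyte cannot be told apart either. Cpt1a itself was 6.91-fold lower in the Cpt1a knockout than in the reference group in the authors' deposited table (log2 fold change −2.79, authors' adjusted p = 5.27e-51). For Cpt2 the Cpt2 group had a log2 fold change of −0.07 relative to the reference group in the authors' deposited table (authors' adjusted p = 0.837). The count over the whole gene thus does not show the deletion named in that label.

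**Figure D2:**
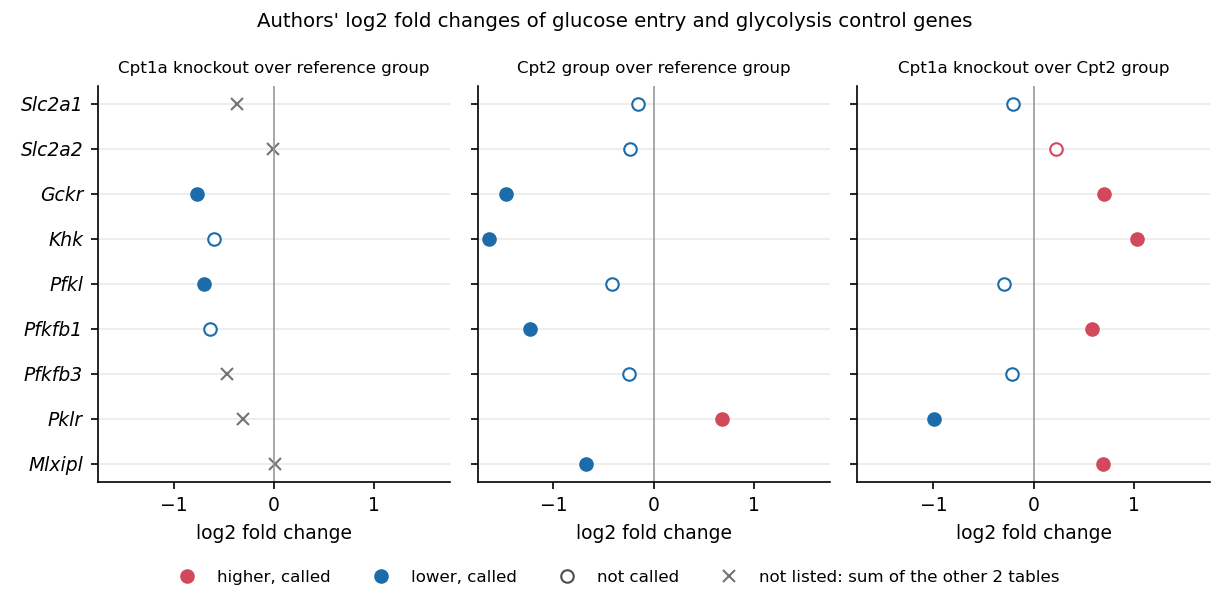
The authors' log2 fold change of each gene in 3 comparisons: Cpt1a knockout over reference group, Cpt2 group over reference group and Cpt1a knockout over Cpt2 group. Filled points are called (authors' adjusted p below 0.05), open points are not, and crosses are sums of the other 2 tables for genes not listed. Pklr is the only gene called higher in the middle panel (0.68) and the only one called lower in the last (−0.99), opposite to Khk, Gckr, Pfkfb1 and Mlxipl.

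The glucose carriers were called in no comparison. Slc2a2 (ENSMUSG00000027690, chromosome 3, 28697903 to 28731359, plus strand, GRCm38) had 38.2, 26.5, 32.7 and 30.8 FPKM in the 4 livers. It made up 61.6% of the summed FPKM of 11 SLC2A carriers, with a range of 57.1 to 64.4%. Its log2 fold change was −0.24 in the Cpt2 group against the reference group (authors' adjusted p = 0.539) and 0.23 in the Cpt1a knockout against the Cpt2 group (authors' adjusted p = 0.432), from the authors' deposited tables, and the sum for the Cpt1a knockout against the reference group was −0.01.

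Slc2a1 (ENSMUSG00000028645, chromosome 4, 119108711 to 119137983, plus strand), the carrier of most tissues, had 5.76, 5.21, 4.42 and 3.23 FPKM and took 8.95% of the carriers' sum. Liver 4 was lowest. The authors' deposited tables gave log2 fold changes of −0.15 in the Cpt2 group against the reference group (authors' adjusted p = 0.564) and −0.21 in the Cpt1a knockout against the Cpt2 group (authors' adjusted p = 0.467), with a sum of −0.36 for the Cpt1a knockout against the reference group. No interval comes with these values, and a p that misses the threshold does not show that the groups were alike. Among the other SLC2A carriers, Slc2a9 took 16.7% and Slc2a8 9.84% of the sum. A list of 12 other carriers held SLC2A and SLC5A genes. The fructose carrier Slc2a5 was the only one of that list called, lower in the Cpt1a knockout (log2 fold change −1.11, authors' adjusted p = 0.000918) and in the Cpt2 group (−1.13, authors' adjusted p = 0.00184) against the reference group in the authors' deposited tables. That was 1 of 7 carriers for the first comparison and 1 of 8 with a test in the second, and 0 of 8 were called between the Cpt1a knockout and the Cpt2 group. The table of the first comparison lists only 2 of these carriers. The 7 are those for which each of the remaining tables gave an adjusted p.

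Gckr and Khk, which act where hexoses are phosphorylated, were lower in the Cpt2 group than in both other groups. Gckr (ENSMUSG00000059434, chromosome 5, 31297443 to 31327314, plus strand) had 1198, 1952, 1427 and 2110 normalized counts in the Cpt1a knockout livers, against 2836 in the reference group, the level that the log2 fold change of the authors' deposited table implies. Levels of other groups given below are implied in the same way, and each table has its own scale. All 4 livers lay below that level. The difference was 1.70-fold (log2 fold change −0.76, authors' adjusted p = 0.00204, authors' deposited table). It was 2.78-fold lower in the Cpt2 group than in the reference group (log2 fold change −1.48, authors' adjusted p = 3.11e-24, authors' deposited table). Set against each other on the scale of the third deposited table of the authors, the Cpt1a knockout livers had 1254, 2029, 1483 and 2205 normalized counts, against an implied 1072 in the Cpt2 group, and all 4 lay above it. That difference was 1.63-fold (log2 fold change 0.70, authors' adjusted p = 0.00216, authors' deposited table).

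Khk (ENSMUSG00000029162, chromosome 5, 30921431 to 30931248, plus strand), the enzyme that commits fructose to metabolism, had 1387, 1215, 2249 and 2577 normalized counts in the Cpt1a knockout livers, against an implied 2803 in the reference group, in the authors' deposited table. All 4 were below that level, livers 3 and 4 much nearer to it than livers 1 and 2. It was not called there (log2 fold change −0.59, authors' adjusted p = 0.10, authors' deposited table). Khk in the Cpt2 group was 3.12-fold lower than in the reference group, the largest change among the 9 genes in any of the tables (log2 fold change −1.64, authors' adjusted p = 1.71e-17, authors' deposited table). Against the Cpt2 group, the Cpt1a knockout livers had 1452, 1263, 2337 and 2693 normalized counts and the Cpt2 group an implied 945 in the authors' deposited table. Khk was thus 2.05-fold higher in the Cpt1a knockout livers than in the Cpt2 group (log2 fold change 1.04, authors' adjusted p = 0.000102, authors' deposited table).

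Of the 8 measured fructose and polyol enzymes, Tkfc, which phosphorylates glyceraldehyde downstream of ketohexokinase, was lower in the Cpt1a knockout (log2 fold change −0.80, authors' adjusted p = 0.00538) and in the Cpt2 group (−0.61, authors' adjusted p = 0.0216) against the reference group, in the authors' deposited tables. Akr1b7, an aldo-keto reductase, was also lower in both (−2.98 and −3.99, in the same order, authors' adjusted p = 0.0412 and 0.00982, authors' deposited tables). Akr1b7 was near the floor, however, at a mean of 0.0514 FPKM in the Cpt1a knockout livers. Its mean of 0.960 normalized counts there stood against an implied 7.56 in the reference group, so its changes rest on few reads. It is among the lower genes counted below. Sord, sorbitol dehydrogenase, was lower in the Cpt2 group than in the reference group (−0.50, authors' adjusted p = 0.0461) and higher in the Cpt1a knockout than in the Cpt2 group (0.58, authors' adjusted p = 0.00288, authors' deposited tables). Akr1b10 was higher in the Cpt1a knockout than in the Cpt2 group (1.17, authors' adjusted p = 0.0121, authors' deposited table). In all, 0 were higher and 2 lower of the 8 measured in the first comparison, and 0 higher and 3 lower of 8 with a test in the second. In the third, 2 were higher and 0 lower of 7 with a test.

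The phosphofructokinase subunit genes Pfkl and Pfkm were lower in the Cpt1a knockout than in the reference group. Pfkl (ENSMUSG00000020277, chromosome 10, 77986947 to 78010083, minus strand), the liver subunit of the enzyme that commits fructose 6-phosphate to glycolysis, had 274, 224, 338 and 311 normalized counts in the Cpt1a knockout livers, against an implied 466 in the reference group, in the authors' deposited table. All 4 livers were below that level, and the difference was 1.62-fold (log2 fold change −0.70, authors' adjusted p = 0.0230, authors' deposited table). Its log2 fold change was −0.42 in the Cpt2 group against the reference group (authors' adjusted p = 0.135) and −0.29 in the Cpt1a knockout against the Cpt2 group (authors' adjusted p = 0.176), neither called in the authors' deposited tables. The muscle subunit gene Pfkm had a log2 fold change of −0.64 in the Cpt1a knockout against the reference group (authors' adjusted p = 0.0119) and was not called against the Cpt2 group (−0.27, authors' adjusted p = 0.30, authors' deposited tables). Pfkp, the platelet subunit gene, was not listed in the table against the reference group, and was not called against the Cpt2 group (−0.36, authors' adjusted p = 0.348, authors' deposited table). In the 4 livers Pfkm held 44.5 to 59.7% of the summed FPKM of the 3 subunit genes and Pfkl 38.0 to 51.8%. The liver subunit held the larger share in liver 3 and the muscle subunit in the other livers.

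The enzymes that set fructose 2,6-bisphosphate were led by Pfkfb1, the liver form, with 43.7 to 66.1% of the summed FPKM of the 4 PFKFB genes, then Pfkfb2, the heart form, with 25.9 to 37.0%. Pfkfb1 (ENSMUSG00000025271, chromosome X, 150588229 to 150643878, plus strand) had 326, 510, 606 and 439 normalized counts in the Cpt1a knockout livers, against an implied 734 in the reference group, in the authors' deposited table. All 4 livers were below that level, but it was not called (log2 fold change −0.64, authors' adjusted p = 0.126, authors' deposited table). It was 2.35-fold lower in the Cpt2 group than in the reference group (log2 fold change −1.24, authors' adjusted p = 0.000243, authors' deposited table). Against the Cpt2 group, the Cpt1a knockout livers had 341, 530, 630 and 459, all above the 327 implied for the Cpt2 group, with liver 1 close to it (log2 fold change 0.58, authors' adjusted p = 0.0429, authors' deposited table).

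Pfkfb3 (ENSMUSG00000026773, chromosome 2, 11471433 to 11554077, minus strand), the form with the highest kinase activity relative to its phosphatase, was at 2.34, 1.91, 1.05 and 1.80 FPKM, or 6.74 to 18.4% of the family. Liver 3 was lowest, with 126 counts. It was called in no comparison, with log2 fold changes of −0.25 in the Cpt2 group against the reference group (authors' adjusted p = 0.679) and −0.22 in the Cpt1a knockout against the Cpt2 group (authors' adjusted p = 0.593) in the authors' deposited tables and a sum of −0.47 for the Cpt1a knockout against the reference group.

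Genes of the opposing glucose release route, G6pc, Fbp1 and Slc37a4, were lower in both groups than in the reference group. G6pc, the glucose 6-phosphatase that releases free glucose, had log2 fold changes of −1.25 in the Cpt1a knockout and −2.76 in the Cpt2 group (authors' adjusted p = 9.62e-06 and 9.68e-25 in that order, authors' deposited tables). Fbp1, fructose 1,6-bisphosphatase of the liver, had −0.78 and −1.68 (authors' adjusted p = 1.49e-05 and 1.58e-25), and Slc37a4, the glucose 6-phosphate carrier, −1.22 and −1.24 (authors' adjusted p = 5.59e-08 and 3.58e-09), in the same order and tables of the authors. Fbp2, the muscle fructose 1,6-bisphosphatase, was higher instead, at 1.69 and 3.22 (authors' adjusted p = 0.0370 and 1.12e-08, authors' deposited tables). Fbp2 was low in the Cpt1a knockout livers, at a mean of 0.664 FPKM, where Fbp1 had 380. Its mean of 14.2 normalized counts there stood against an implied 4.40 in the reference group. Together with the other PFKFB genes Pfkfb2 and Pfkfb4, with Tigar, a fructose 2,6-bisphosphatase, and with G6pc3, these genes formed a list of 8. Of the 8, 1 was higher and 3 lower in the Cpt1a knockout, and 1 higher and 4 lower in the Cpt2 group, where Pfkfb2 was the added one (−0.55, authors' adjusted p = 0.0478, authors' deposited table). Between the Cpt1a knockout and the Cpt2 group, G6pc (1.5, authors' adjusted p = 1.72e-08) and Fbp1 (0.89, authors' adjusted p = 2.66e-08) were higher and Fbp2 (−1.53, authors' adjusted p = 0.000371) lower in the authors' deposited table.

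Pklr, the last control step, moved opposite to Khk, Gckr, Pfkfb1 and Mlxipl in the tables that include the Cpt2 group. Pklr (ENSMUSG00000041237, chromosome 3, 89136142 to 89146784, plus strand) codes for the liver and red cell forms of pyruvate kinase, which start from separate promoters. In the authors' deposited table the Cpt1a knockout livers had 333, 314, 416 and 331 normalized counts, against an implied 694 in the Cpt2 group. All 4 livers lay at 0.452 to 0.599 of that level, the narrowest spread of the 9 genes, and the difference was 1.99-fold (log2 fold change −0.99, authors' adjusted p = 2.71e-07, authors' deposited table). The Cpt2 group in turn was 1.61-fold above the reference group (log2 fold change 0.68, authors' adjusted p = 0.00371, authors' deposited table). For the Cpt1a knockout relative to the reference group, where Pklr is not listed, the sum was −0.31. Pklr held 73.2 to 75.7% of the summed FPKM of Pklr and Pkm, the form of most other tissues.

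Red blood cell markers moved the other way from Pklr in the authors' deposited tables. In the Cpt2 group against the reference group, 4 of 5 were lower and 0 higher, such as Hbb-bs at −1.42 (authors' adjusted p = 2.95e-05). None of 4 was called between the Cpt1a knockout and the reference group, where the cut table lists none of these markers. In the Cpt1a knockout against the Cpt2 group, 4 of 5 were higher and 0 lower, with Hbb-bs at 1.33 (authors' adjusted p = 4.92e-05, authors' deposited table). In the 4 livers the summed FPKM of the 7 red cell markers ranged from 175 to 521, while Pklr ranged from 6.39 to 8.45 FPKM. The part of red cells in the Pklr value was not tested. Hcn3, on the opposite strand, shares 711 of the 3236 exon bases of Pklr, and the use of strand in counting is not given. Hcn3 was at 0.0802 to 0.182 FPKM in the 4 livers. In the authors' deposited table it had a mean of 9.10 normalized counts in the Cpt1a knockout and an implied 25.5 in the Cpt2 group (log2 fold change −1.49, authors' adjusted p = 0.0164). Antisense or opposite-strand genes cover 3.06% of the exon bases of Pfkfb1, 4.24% of those of Mlxipl and 2.99% of those of Slc2a1.

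**Figure D3:**
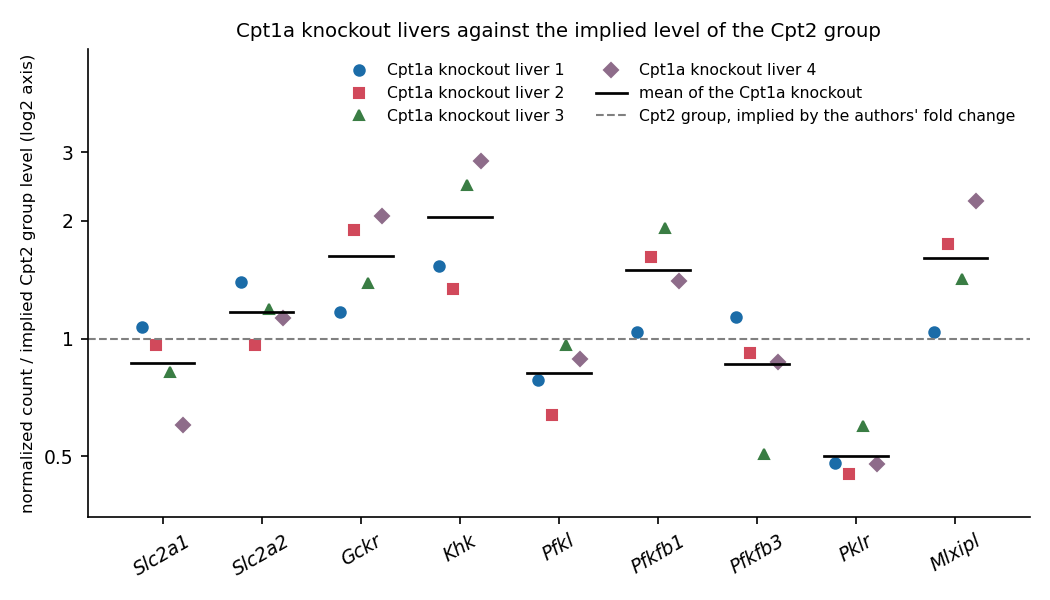
Normalized count of each gene in each Cpt1a knockout liver divided by the level of the Cpt2 group that the authors' log2 fold change implies (log2 axis, 1 marks equality), with the mean of the 4 livers as a bar. All 4 livers lie above 1 for Gckr, Khk, Pfkfb1 and Mlxipl and below it for Pfkl and Pklr, with Pklr at 0.452 to 0.599 and Khk at 1.34 to 2.85.

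Mlxipl (ENSMUSG00000005373, chromosome 5, 135089890 to 135138382, plus strand), the glucose-responsive factor, was lower in the Cpt2 group than in either other group. It was 1.59-fold lower in the Cpt2 group than in the reference group in the authors' deposited table (log2 fold change −0.67, authors' adjusted p = 0.00580). Against the Cpt2 group, the Cpt1a knockout livers had 1565, 2624, 2140 and 3386 normalized counts, where the Cpt2 group was at an implied 1506 (log2 fold change 0.69, authors' adjusted p = 0.0140, authors' deposited table). All 4 livers were above that level, but liver 1 was only 1.04 times as high. For the Cpt1a knockout relative to the reference group, where Mlxipl is not listed, the sum was 0.02.

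The list of ChREBP partners and target genes, which Pklr also belongs to by textbook knowledge, moved both ways where the Cpt2 group was compared. Between the Cpt1a knockout and the reference group most of its called genes were lower. G6pc, given above, is on this list too and is among its called genes in each comparison. Of 21 genes, 1 was higher and 7 lower in the Cpt1a knockout than in the reference group in the authors' deposited table, led by Acly (−1.17, authors' adjusted p = 3.71e-11) and Fasn (−1.87, authors' adjusted p = 7.97e-09), of fatty acid synthesis. The higher one was malic enzyme Me1 (0.59, authors' adjusted p = 0.0377, authors' deposited table), named after its value was seen. In the Cpt2 group against the reference group, the authors' deposited table had 5 higher and 9 lower. Lower ones included Thrsp (−2.79, authors' adjusted p = 1.45e-15), a lipogenic regulator, and Elovl6 (−1.35, authors' adjusted p = 3.03e-12), a fatty acid elongase, while transketolase Tkt was higher (1.17, authors' adjusted p = 1.88e-11) in the authors' deposited table. Between the Cpt1a knockout and the Cpt2 group, 4 were higher, among them Thrsp (1.79, authors' adjusted p = 9.03e-07) and the arrestin-domain gene Arrdc4 (1.27, authors' adjusted p = 9.25e-09), and 7 lower, among them Tkt (−1.32, authors' adjusted p = 9.87e-13), in the authors' deposited table. The list's median log2 fold change was −0.14, −0.41 and −0.05 in the order of the comparisons, where that of all genes was 0.01, −0.03 and 0.05.

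Of the rest of the glycolytic pathway, 22 enzymes outside the 9 genes, those called between the Cpt1a knockout and the Cpt2 group were lower, as Pklr was. There the authors' deposited table called 0 higher and 7 lower, with a list median of −0.31. Aldoa, an aldolase of most tissues, had a mean of 1651 normalized counts in the Cpt1a knockout and an implied 4250 in the Cpt2 group (log2 fold change −1.36, authors' adjusted p = 5.05e-24, authors' deposited table). Gpi1, glucose 6-phosphate isomerase (−0.92, authors' adjusted p = 3.97e-15), and the enolase gene Eno1 (−1.0, authors' adjusted p = 1.94e-10) were lower too in the authors' deposited table, as were Eno1b and Pgk1. In the Cpt2 group against the reference group, Aldoa (0.89, authors' adjusted p = 0.000467) and Eno1 (0.77, authors' adjusted p = 0.00876) were higher and Eno1b lower, 2 and 1 of 22, with a median of 0.18, in the authors' deposited table. For the Cpt1a knockout relative to the reference group the authors' deposited table called 0 higher and 4 lower, namely Gpi1 (−0.65, authors' adjusted p = 0.000731), Pfkm, the phosphoglycerate kinase gene Pgk1 (−0.51, authors' adjusted p = 0.0262) and Eno1b, with a median of −0.31. Eno1b is nearly identical in sequence to Eno1, so reads may be split between them and its values are uncertain. The same holds for Gapdh, which has many processed pseudogenes and stood at only 3.59 ± 1.15 FPKM (SD, n = 4).

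**Figure D4:**
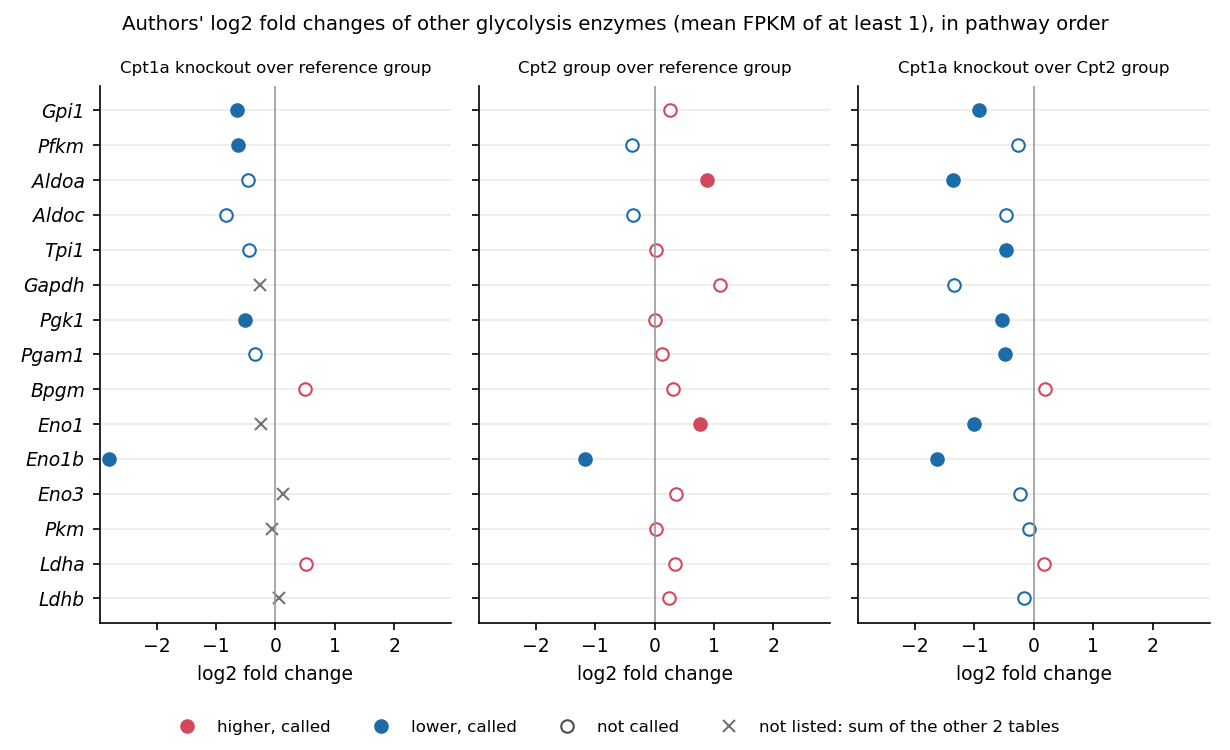
The authors' log2 fold change of 15 other glycolysis enzymes with a mean of at least 1 FPKM, in pathway order, in the same 3 comparisons. In the last panel 7 enzymes are called lower and 0 higher, while Aldoa and Eno1 are called higher in the Cpt2 group against the reference group.

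Cell type markers moved with some of these comparisons, and their part in the results was not tested. Of 10 hepatocyte markers, 7 were lower and 0 higher in the Cpt1a knockout, and 7 lower and 0 higher in the Cpt2 group, each against the reference group, in the authors' deposited tables. Between the Cpt1a knockout and the Cpt2 group, the authors' deposited table called 3 higher and 2 lower, with Alb at 0.17 (authors' adjusted p = 0.550). Kupffer cell and macrophage markers were higher in 11 of 14 and lower in 1 in that comparison, in 2 and 0 of 14 in the Cpt1a knockout and in 1 and 3 of 14 in the Cpt2 group against the reference group, in the authors' deposited tables. Endothelial (4 of 9), lymphocyte (4 of 9) and stellate (2 of 9, with 2 lower) markers were also higher in the Cpt1a knockout than in the Cpt2 group in the authors' deposited table, with 1 of 4 neutrophil and 1 of 6 bile duct markers. Relative to the reference group, the authors' deposited tables called 3 lymphocyte, 2 stellate and 1 neutrophil marker higher in the Cpt1a knockout and 1 endothelial, 1 bile duct and 1 lymphocyte marker lower in the Cpt2 group. No other marker of these lists was called, and muscle markers had no test. In the 4 livers the summed FPKM was 21518 to 30406 for hepatocyte markers, 240 to 261 for Kupffer cell and macrophage, 77.4 to 85.7 for endothelial and 45.1 to 55.4 for stellate markers. Bile duct (8.53 to 12.4), neutrophil (2.95 to 4.51) and lymphocyte (3.54 to 4.17) markers were low. Adipocyte markers summed to at most 0.288 FPKM with 1 of 4 at 0, and muscle markers to at most 0.0840 FPKM with 3 of 4 at 0.

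Between the 4 Cpt1a knockout livers the genes differed in spread. Khk (53.0, 46.3, 85.5 and 98.1 FPKM) and Mlxipl (18.5, 31.2, 25.4 and 40.0 FPKM) varied most on the log2(FPKM + 1) scale, with SDs of 0.52 and 0.45. The place of Mlxipl depended on the scale: on log2 counts scaled by DESeq2 size factors its SD was 0.478, and that of the low gene Pfkfb3 was 0.484. Pfkfb3 also had the widest ratio of highest to lowest liver, 2.23, against 2.16 for Mlxipl and 2.12 for Khk. The SDs of Khk and Mlxipl on log2(FPKM + 1) were larger than those of 92.8% and 90.3% of the 10859 genes with a mean FPKM of at least 1. Pklr varied least, with 6.75, 6.39, 8.45 and 6.70 FPKM and an SD of 0.16, above that of 34.7% of these genes but of 55.9% of all genes with a count. Pfkl (2.81, 2.30, 3.46 and 3.18 FPKM) and Slc2a2 had SDs of 0.19 and 0.21, above those of 46.3% and 54.1% of the genes with a mean FPKM of at least 1, and of 64.4% and 69.8% of all genes with a count. Counting error alone would give a coefficient of variation of 2.25% for Khk, whose observed one was 35.4%, and 5.32% for Pklr, whose observed one was 13.2%. For Pfkfb3 these were 6.97% and 30.3%, the lowest count being 126.

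The livers did not rank alike for all genes. Liver 4 was highest for Khk, Mlxipl and Gckr and lowest for Slc2a1, and liver 1 was lowest for Mlxipl, Gckr (19.0 FPKM) and Pfkfb1 (5.57 FPKM) and highest for Slc2a1, Slc2a2 and Pfkfb3. Gckr and Mlxipl had the same order of livers, 4, 2, 3 and 1 from high to low. For Gckr, whose change was the largest among the called members in the Cpt1a knockout against the reference group, the most similar profiles over the 4 livers were sought among 9505 protein-coding genes with a mean FPKM of at least 1. Likeness was the Euclidean distance between log2(FPKM + 1) values centred on each gene's mean. Ctla2a (distance 0.0624), Leng8 (0.0810) and Il18 (0.0948) were nearest. Mlxipl, the nearest of the 9, was at 0.232 and in place 31.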

How the data were processed

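The submitters' processing notes name HISAT2 as a tool and GRCm38 (mm10) as the genome build. How reads were counted, on which annotation and whether by strand, and which test gave the comparison tables, is not stated. The authors deposited raw read counts per gene with gene model lengths in bases, FPKM per gene, and 3 comparison tables. Per the file headers these hold normalized counts per library (a signal on each table's own scale), the mean of the Cpt1a knockout, log2 fold changes, p-values and adjusted p-values. Beside these samples, 8 further per-sample columns of the count table match none of the samples given and were not used, nor were normalized values or means of other groups. A level of another group is the mean of the Cpt1a knockout divided by the authors' fold change. The series holds 1 group of 4 samples, which allows no fit between groups, so calls are the authors' adjusted p below 0.05 with the sign of the log2 fold change, and adjusted p-values of 1 were treated as missing. For the partial table the ratio of adjusted to unadjusted p gave about 16862 genes tested, with 17475 and 17755 genes in the other tables, and its medians use the summed log2 fold changes. List and marker totals for that comparison count the genes to which each full table assigned an adjusted p, whether or not the partial table lists them. Unlisted ones count as not called. For the fructose and polyol enzymes the total is all 8 measured.

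The 9 genes, 6 gene lists and 10 marker lists were chosen with earlier results of these data known. Of each list, at most 6 called genes per comparison with the smallest adjusted p were to be named. Of genes that share a symbol the more abundant was kept. One item of the gene lists is not reported here. Levels were described as FPKM with SD over 4 livers, and spread on log2(FPKM + 1). Alternatives used TPM, edgeR 4.0.16 TMM factors and DESeq2 1.42.0 size factors (R 4.3.3). Libraries held 13138884 to 14116441 counts in total. The counting error of each gene was worked out from its own mean count over the 4 livers.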

Additional observations from a re-analysis of the deposited data

Results flagged for a closer look

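Of 60 genes checked for a single liver standing apart from the other 3 in FPKM, 3 (5%) did so, and chance alone flags about 1 in 20 such groups of 4 (Dixon's test). None of the 9 glucose entry and glycolysis control genes was among them. The glucose and fructose carrier Slc2a8 was at 6.89 FPKM in liver 1, against 4.74, 4.67 and 4.30 in the other livers. Bnip3, a mitophagy receptor induced by hypoxia, was at 233 FPKM in liver 3, against 192, 188 and 190. The hormone gene Fgf21 was at 35.8 FPKM in liver 3, against 14.9, 15.2 and 17.5.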

How the results depend on the processing

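In the Cpt1a knockout against the reference group, 2 members were called. At an adjusted p below 0.01 there was 1 (Gckr, lower, as were 4.54% of all genes), with a change of at least 1 on the log2 scale also required there were 0 (2.76% of all genes were lower), and at an unadjusted p below 0.05 there were 4, all lower, where 13.3% of all genes were lower. In the Cpt2 group against the reference group the 5 members called became 3, all lower, when a log2 fold change of at least 1 was required, where 5.79% of all genes were lower and 4.78% higher. Between the Cpt1a knockout and the Cpt2 group the 5 became 2 higher and 1 lower, 3 in all, at 0.01, where 9.2% of all genes were higher and 10.5% lower, and 1, higher, at a log2 fold change of at least 1, where 6.7% were higher and 4.02% lower. Of the other glycolysis enzymes, 4, 3 and 7 were called in these comparisons, which became 1, 1 and 3 with a log2 fold change of at least 1, and 2 in the first comparison at 0.01. Each of these stricter counts includes Eno1b, whose values are uncertain, and it is the only enzyme left in the first and second comparisons at a log2 fold change of at least 1. Fewer genes can pass a stricter rule by construction. Centring on the median of all genes turned no direction of a member. A limit of a mean count of 10 could not change the counts of members, since each had at least 126 counts in every liver. With that limit, 8.55%, 12.3% and 17.9% of genes were called lower in the 3 comparisons in order, and 8.11%, 11.9% and 17.5% higher.

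The median of the 9 mean levels was 8.02 FPKM and 20.9 as TPM, another scale. It was 7.25 to 8.83 FPKM with each liver left out in turn. The SD of Pfkfb3 between livers, 0.30, was 0.46 with a pseudocount of 0.1 and 0.48 on TMM and DESeq2 scales. Within livers 1, 2 and 4, 5, 3 and 3 members stood at another place in the order of levels. No paired analysis was possible because the series holds 1 group of samples. The 4 libraries limit the precision of every level, the authors' values carry no SD or n here, and at 126 to 266 counts Pfkfb3 has the widest counting error of the 9 genes.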

Other observations

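Slc2a1 and Pfkfb3 are textbook targets of hypoxia-inducible factors. The list of other hypoxia-inducible genes shares Ldha and Pgk1 with the glycolysis enzymes above. Of the other hypoxia-inducible genes listed, 1 was higher (Bnip3, log2 fold change 0.54, authors' adjusted p = 0.0400) and 1 lower (Pgk1) of 16 in the Cpt1a knockout against the reference group in the authors' deposited table. That is near the shares of all genes, 6.81% called higher and 7.6% lower. The Cpt2 group, against the same reference, had 4 of 16 higher and 2 lower, by the authors' deposited table. There 10.3% of all genes were called higher and 10.7% lower. Heme oxygenase Hmox1 (2.05, authors' adjusted p = 0.00283) was among the higher ones and the prolyl hydroxylase Egln1 (−0.65, authors' adjusted p = 0.000209) among the lower. In the Cpt1a knockout against the Cpt2 group, 3 of 17 were higher and 6 lower, by the authors' deposited table. Of all genes, 14.2% were called higher and 14.6% lower in that comparison. Bnip3 (0.86, authors' adjusted p = 2.19e-08) and pyruvate dehydrogenase kinase Pdk1 (0.66, authors' adjusted p = 1.08e-06) were higher, while Ndrg1 (−1.16, authors' adjusted p = 2.97e-06) and Hmox1 (−1.63, authors' adjusted p = 1.14e-05) were lower. The list median was −0.05, 0.04 and 0.17 in the order of the comparisons, where that of all genes was 0.01, −0.03 and 0.05.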
